A study of Mus musculus with 9 samples.

Results

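Inhibins, activins and follistatins are a set of hormones, binding proteins and receptors through which ovarian follicles signal to themselves and to the pituitary. The 9 genes described are the rows of the table named Inha, Inhba, Inhbb, Fst, Fstl3, Acvr1b, Acvr2a, Acvr2b and Tgfbr3, out of 22544 rows. They are the subunits, binding proteins and receptors of one system, and the rule that picks them uses names and no measured value. The list itself was chosen with earlier results of these data known. All 9 were in the table, and all 9 passed the filter of at least 1 FPKM (fragments counted per kilobase of transcript and scaled to a common total per library) in at least 3 libraries, which 13338 rows passed.

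Polyadenylated RNA of mouse ovary was profiled in 9 libraries, 3 in each of 3 groups. The HBOT group had, per the design text, received CTX together with HBOT, the abbreviation of hyperbaric oxygen therapy. The CTX group had received CTX alone, the usual abbreviation of cyclophosphamide, an alkylating drug that damages growing follicles. The NC group, whose labels name neither agent, was the control. The sources used here give no strain, age, dose, schedule or stage of the ovarian cycle, and nothing in the labels says that libraries came from separate animals. P-values therefore measure the spread between these libraries, which may be technical.

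As background, the inhibin alpha subunit (Inha) pairs with a beta subunit (Inhba or Inhbb) to form inhibin, which restrains the release of follicle-stimulating hormone from the pituitary. Beta subunits paired with each other form activins, which stimulate that release and act within the follicle. Follistatin (Fst) and follistatin-like 3 (Fstl3) bind activins outside the cell. Activins signal through the type II receptors Acvr2a and Acvr2b and the type I receptor Acvr1b, while betaglycan (Tgfbr3) lets inhibin compete for the type II receptors. In the ovary the subunits and follistatin are products mainly of the granulosa cells that surround the oocyte.

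To show the promoters of the beta subunit genes, the most variable members, and of Fstl3, the one member whose CTX libraries lay apart from both other groups, the 250 bases before their RefSeq starts (GRCm38.p6) are given 5′ to 3′ on the gene's strand. Inhba lies on chr13:16011601-16011850 (plus strand), Inhbb on chr1:119422249-119422498 (minus strand) and Fstl3 on chr10:79777024-79777273 (plus strand). Capitals mark matches, on either strand, to AGGTCA (a site of nuclear receptors such as SF-1) or CAGAC (the SMAD box).
Inhba: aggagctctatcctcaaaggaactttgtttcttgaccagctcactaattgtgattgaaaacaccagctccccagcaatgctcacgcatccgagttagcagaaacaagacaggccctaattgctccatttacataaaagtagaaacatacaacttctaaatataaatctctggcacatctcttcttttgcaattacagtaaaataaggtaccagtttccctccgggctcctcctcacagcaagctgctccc
Inhbb: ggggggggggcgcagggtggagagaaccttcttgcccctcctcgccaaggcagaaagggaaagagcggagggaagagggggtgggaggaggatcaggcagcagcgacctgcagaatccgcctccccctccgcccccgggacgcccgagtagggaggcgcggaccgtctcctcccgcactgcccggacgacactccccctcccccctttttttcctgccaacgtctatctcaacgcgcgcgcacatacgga
Fstl3: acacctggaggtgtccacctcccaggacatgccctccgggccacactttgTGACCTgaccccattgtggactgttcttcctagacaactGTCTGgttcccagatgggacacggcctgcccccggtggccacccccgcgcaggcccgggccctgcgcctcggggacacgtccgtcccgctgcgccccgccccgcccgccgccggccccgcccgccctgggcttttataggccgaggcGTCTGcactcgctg
The Inhba window was 43.2% G and C, the Inhbb window 68.0% and the Fstl3 window 71.2%. Windows were found for 7 of the 9 genes (none for Fst and Tgfbr3), and that of Inha was left out because it lies in the gene's own coding sequence, so 6 were searched. AGGTCA occurred in 1 of them (Fstl3), against 14.0% of all 32851 promoter windows. CAGAC occurred in 3 (Acvr2a, Acvr2b and Fstl3), against 42.2% of all windows. TGACG, the core of the cAMP response element, occurred in 0 of the 6, against 17.8% of all windows, and the palindrome TGACGTCA, which contains it, in 0, against 1.55%. The Inhba and Inhbb windows thus held none of the 4 motifs.

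Summed over all rows, FPKM came to 394046 to 420058 per library. Read depth is unknown, since the table holds no counts. One library, HBOT replicate 2, was set apart: 1637 tested genes lay more than 1 log2 unit away from the other libraries' mean, against 173 to 347 genes for each of the others. All 12 listed granulosa markers were at 1 FPKM or more in every library. Their summed FPKM ran from 1141 to 1502 in HBOT, 1073 to 1759 in CTX and 1001 to 1249 in NC. Within that sum Amh was at 219, 312 and 179 FPKM in HBOT and 76.5, 73.2 and 128 in NC. In CTX Amh was at 414, 171 and 97.7 FPKM. Fshr was at 23.7, 6.78 and 13.8 FPKM in HBOT, 23.6, 9.68 and 17.8 in CTX and 10.5, 10.7 and 10.5 in NC. Fshr overlapped between groups, and the other genes of the list are not given singly. The theca list held 7 genes: Cyp17a1, Insl3, Star, Cyp11a1, Hsd3b1, Ptch1 and Nr2f2. They summed to 5147 to 6245 FPKM in HBOT, 4369 to 9159 in CTX and 6232 to 9065 in NC. In every library most of that sum came from genes of the list other than Cyp17a1 and Insl3. That sum does not stand for each gene in the list. Within it Cyp17a1 was at 698, 685 and 283 FPKM in HBOT and 119, 62.7 and 29.0 in NC. In CTX Cyp17a1 was at 511, 12.3 and 300 FPKM. Insl3, also of that list, overlapped between HBOT (23.0 to 29.3 FPKM) and NC (15.4 to 41.8 FPKM). The 10 oocyte markers summed to 355 to 406 FPKM in HBOT, 244 to 386 in CTX and 158 to 229 in NC. The 11 ovulation genes summed to 1008 FPKM in HBOT replicate 2, with all 11 at 1 FPKM or more, against 15.0 to 43.3 FPKM and 2 to 5 such genes in the other 8 libraries. Of these 11 genes 5 passed the filter. The lists were chosen with earlier results of these data known, so this sum only describes that library. The 8 luteal markers summed to between 1029 and 3930 FPKM in HBOT, 737 and 1209 in CTX and 2985 and 3635 in NC. The 5 blood genes summed to between 317 and 735 FPKM in HBOT, 387 and 816 in CTX and 62.8 and 207 in NC, and the 6 immune markers to between 79.9 and 91.5 FPKM in HBOT, 64.0 and 83.8 in CTX and 46.3 and 56.2 in NC. Smooth muscle and pericyte markers (6 genes) summed to between 349 and 490 FPKM in HBOT, 307 and 370 in CTX and 294 and 380 in NC, and surface epithelium markers (6 genes) to between 30.7 and 66.0 FPKM in HBOT, 35.7 and 80.2 in CTX and 42.5 and 64.4 in NC. The part of these differences in the results that follow was not tested, and in whole ovary fewer cells of a type and less RNA per cell cannot be told apart.

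Inha was by far the most abundant of the 9 transcripts, with a mean of 1396 FPKM over the 9 libraries, and ranked between 11th and 24th of all rows in every library. Behind it came Inhbb (mean 113 FPKM), Fst (87.2), Inhba (57.5), Tgfbr3 (19.6), Acvr1b (7.35), Acvr2a (4.65), Fstl3 (3.71) and Acvr2b (1.54). On this length-corrected scale the 9-library ranges of Inhbb and Fst, Fst and Inhba, Inhba and Tgfbr3, and Acvr2a and Fstl3 overlapped, so these neighbours were not separated beyond their spread. Tgfbr3 and Acvr1b, Acvr1b and Acvr2a, and Fstl3 and Acvr2b had separate ranges, as had Inha and Inhbb. The beta subunits were the variable members: the SD of log2(FPKM + 1) over the 9 libraries was 1.24 for Inhbb and 0.82 for Inhba, larger than that of 99.1% and 96.6% of tested genes. The highest library exceeded the lowest by 18.8-fold for Inhbb and 8.16-fold for Inhba, and by 1.56-fold (Acvr2b) to 1.86-fold (Tgfbr3) for the other 7 genes.

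**Figure D1:**
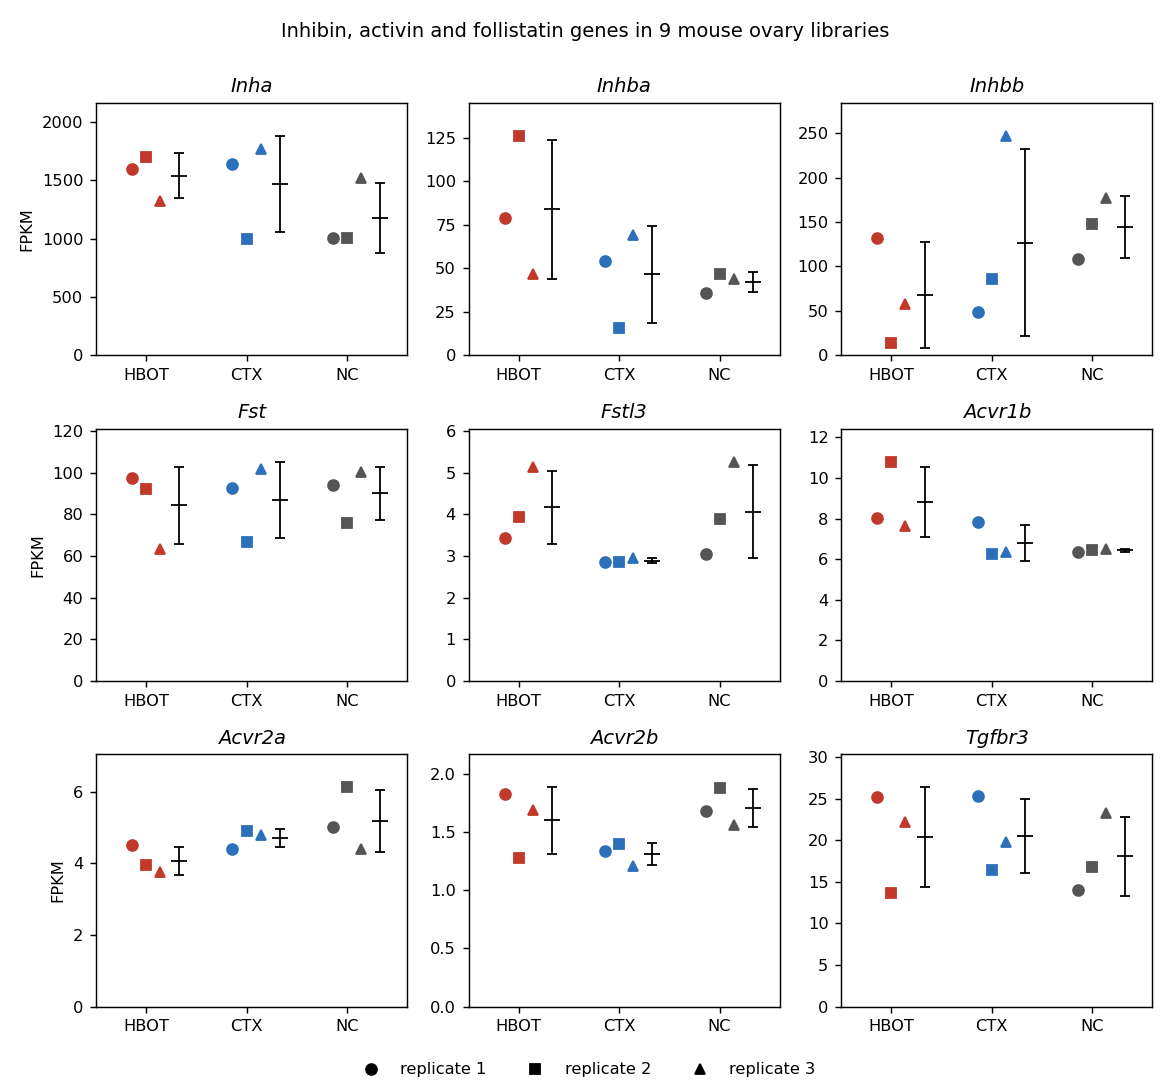
FPKM of the 9 genes (y axes, linear, from 0) in the HBOT, CTX and NC libraries, with one symbol per library and the mean ± SD of 3 libraries in black. Inhbb in HBOT replicate 2 lies at 13.2 FPKM, the lowest of its 9 values, while Inhba in the same library lies at 126 FPKM, the highest of its 9; the 3 CTX values of Fstl3 lie between 2.86 and 2.95 FPKM.

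None of the 9 genes passed an adjusted p of 0.05 with limma in any comparison. In CTX against NC 0 of 9 passed, as did 0% of the 13338 genes tested, and at an unadjusted p under 0.05 the count was 0 of 9, against 7.98% of all genes (5.24% higher and 2.74% lower). For HBOT against CTX the count was 0 of 9, against 0% of all genes, and 0 of 9 at an unadjusted p under 0.05, against 6.09% (2.41% higher and 3.67% lower). For HBOT against NC it was 0 of 9, against 0% of all genes, and 1 of 9 at an unadjusted p under 0.05 (Acvr1b, higher), against 11.9% (6.22% higher and 5.65% lower). The median log2 fold change of the 9 genes was -0.10 in CTX against NC (0.05 over all genes tested), 0.11 in HBOT against CTX (-0.07 over all genes) and 0.04 in HBOT against NC (-0.01 over all genes). Each pair of comparisons shares the libraries of one group, so their values are not independent of each other. Fold changes are given on the log2(FPKM + 1) scale, where changes of low genes come out too small. The residual spread was estimated from all 9 libraries together, HBOT replicate 2 included, also for CTX against NC.

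**Figure D2:**
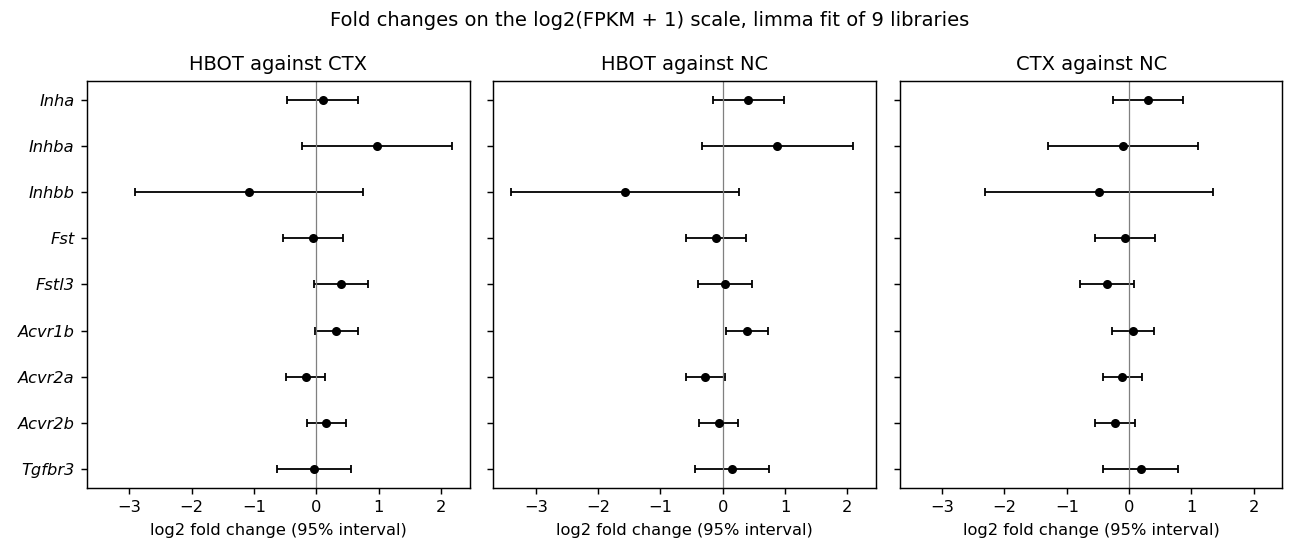
Log2 fold change of each gene (x axis, on the log2(FPKM + 1) scale) with its 95% interval from the limma fit of 9 libraries, for HBOT against CTX, HBOT against NC and CTX against NC. The widest intervals are those of Inhbb and Inhba, and only the interval of Acvr1b in HBOT against NC (0.05 to 0.73) leaves out 0.

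Inha (ENSMUSG00000032968), the subunit that makes a dimer an inhibin, was at 1600.1, 1703 and 1323 FPKM in HBOT, 1639, 996 and 1771 FPKM in CTX, and 1007, 1002 and 1524 FPKM in NC. CTX replicate 2 and NC replicates 1 and 2 were the low libraries, and the 3 groups overlapped. The mean was 1542 ± 196 FPKM in HBOT, 1469 ± 415 in CTX and 1177 ± 300 in NC (SD, n = 3 each). The log2 fold change was 0.41 in HBOT against NC (SE 0.25, adjusted p = 0.519 by limma) and 0.30 in CTX against NC (SE 0.25, adjusted p = 0.859), where it was 0.15 without CTX replicate 3 and 0.56 without CTX replicate 2. For HBOT against CTX it was 0.11 (SE 0.25, adjusted p = 0.887), with a 95% interval of -0.46 to 0.67, and -0.15 without CTX replicate 2.

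Inhba (ENSMUSG00000041324), the beta A subunit of activin A and inhibin A, was at 79.1, 126 and 46.8 FPKM in HBOT, 54.4, 15.5 and 69.4 FPKM in CTX, and 35.6, 46.9 and 43.8 FPKM in NC. HBOT replicate 2 was the highest library and CTX replicate 2 the lowest, an 8.16-fold range, and the NC libraries lay closest together. The mean was 84.0 ± 39.9 FPKM in HBOT, 46.4 ± 27.8 in CTX and 42.1 ± 5.86 in NC (SD, n = 3 each). The log2 fold change in HBOT against CTX was 0.97 (SE 0.53, 95% interval -0.23 to 2.18, adjusted p = 0.710 by limma), and in HBOT against NC it was 0.88 (SE 0.53, adjusted p = 0.518). Without HBOT replicate 2 these values were 0.63 and 0.53, and without CTX replicate 2 HBOT against CTX was at 0.33. CTX against NC stood at -0.10 (SE 0.53, adjusted p = 0.994), although the mean FPKM was higher in CTX, and at 0.54 without CTX replicate 2.

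Inhbb (ENSMUSG00000037035), the beta B subunit of activin B and inhibin B, was at 132 FPKM in HBOT replicate 1, 13.2 in replicate 2 and 57.9 in replicate 3. In CTX it was at 48.2, 85.3 and 247 FPKM, and in NC at 108, 147 and 177 FPKM. HBOT replicate 2 lay far below all others and CTX replicate 3 above all others, an 18.8-fold range, and the groups overlapped. The mean was 67.7 ± 60.0 FPKM in HBOT, 127 ± 106 in CTX and 144 ± 34.7 in NC (SD, n = 3 each). The log2 fold change in HBOT against NC was -1.57 (SE 0.81, 95% interval -3.40 to 0.27, adjusted p = 0.471 by limma), and -0.68 without HBOT replicate 2. For HBOT against CTX it was -1.08 (SE 0.81, adjusted p = 0.713), -0.20 without that library and -0.44 without CTX replicate 3. CTX against NC was at -0.48 (SE 0.81, adjusted p = 0.947), at 0.0396 with CTX replicate 1 left out and -1.13 with CTX replicate 3 left out.

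The balance of the beta subunits, which share their partners, was computed within each library, where the scaling of the library has no part. Inhba made up 37.5%, 90.6% and 44.7% of the summed Inhba and Inhbb FPKM in HBOT, 53.0%, 15.4% and 21.9% in CTX, and 24.8%, 24.2% and 19.8% in NC. All 3 HBOT libraries lay above all 3 NC libraries, whereas the CTX libraries lay above, below and within the NC range. How often ratios of other gene pairs separate HBOT from NC was not computed. Of single tested genes, 10.9% were higher and 9.6% lower in HBOT than in NC without overlap. Inhba exceeded Inhbb in 2 of the 9 libraries, HBOT replicate 2 and CTX replicate 1. The log2 ratio of Inhba to Inhbb averaged 0.74 ± 2.20 in HBOT and -1.76 ± 0.23 in NC (SD, n = 3 each), a difference of 2.50. An exact two-sided permutation test gave p = 0.1, the smallest that 3 against 3 libraries allow (0.45 adjusted over the 9 ratio comparisons made). Without HBOT replicate 2 the difference was 1.23 (exact permutation p = 0.2, the smallest for 2 against 3), and the remaining HBOT libraries still lay above NC. The CTX mean was -1.37 ± 1.38 (SD, n = 3), and HBOT against CTX differed by 2.11 (exact permutation p = 0.3, adjusted p = 0.675), and 0.85 without HBOT replicate 2. In CTX against NC it was 0.38 (exact permutation p = 0.9, adjusted p = 0.9), and -0.39 without CTX replicate 1.

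**Figure D3:**
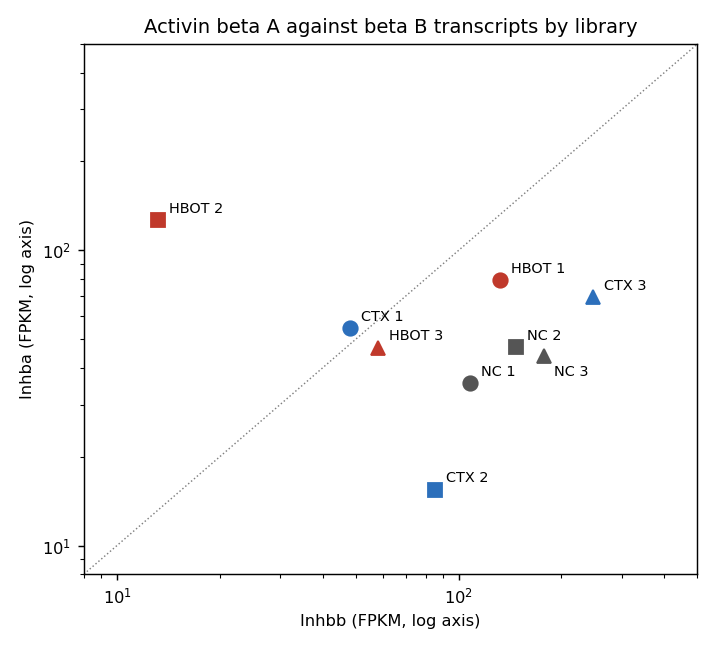
FPKM of Inhba (y axis, log) against that of Inhbb (x axis, log) in the 9 libraries, with equality as a dotted line. HBOT replicate 2 stands alone at 13.2 FPKM of Inhbb and 126 FPKM of Inhba, and the 3 NC libraries lie together to the right of the line.

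The alpha subunit exceeded the summed beta subunits in every library. The linear ratio of Inha to the sum of Inhba and Inhbb was 7.58, 12.2 and 12.6 in HBOT, 16.0, 9.88 and 5.60 in CTX, and 7.01, 5.16 and 6.90 in NC. The HBOT libraries lay above the NC libraries without overlap, although HBOT replicate 1 was close to NC replicate 1. For this ratio, too, the share of other gene pairs that separate HBOT from NC was not computed. CTX replicate 3 lay within the NC range, CTX replicate 2 within the HBOT range and CTX replicate 1 above both. On the log2 scale the mean was 3.40 ± 0.41 in HBOT, 3.26 ± 0.76 in CTX and 2.65 ± 0.25 in NC (SD, n = 3 each). The difference in HBOT against NC was 0.74 (exact permutation p = 0.1, the smallest possible, adjusted p = 0.45), and 0.64 without HBOT replicate 2. CTX against NC differed by 0.61 (exact permutation p = 0.3, adjusted p = 0.675), by 0.24 without CTX replicate 1 and by 0.998 without CTX replicate 3. HBOT against CTX differed by 0.13 (exact permutation p = 0.8, adjusted p = 0.9), and by -0.26 without CTX replicate 3. FPKM ratios compare transcripts, not secreted dimers.

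**Figure D4:**
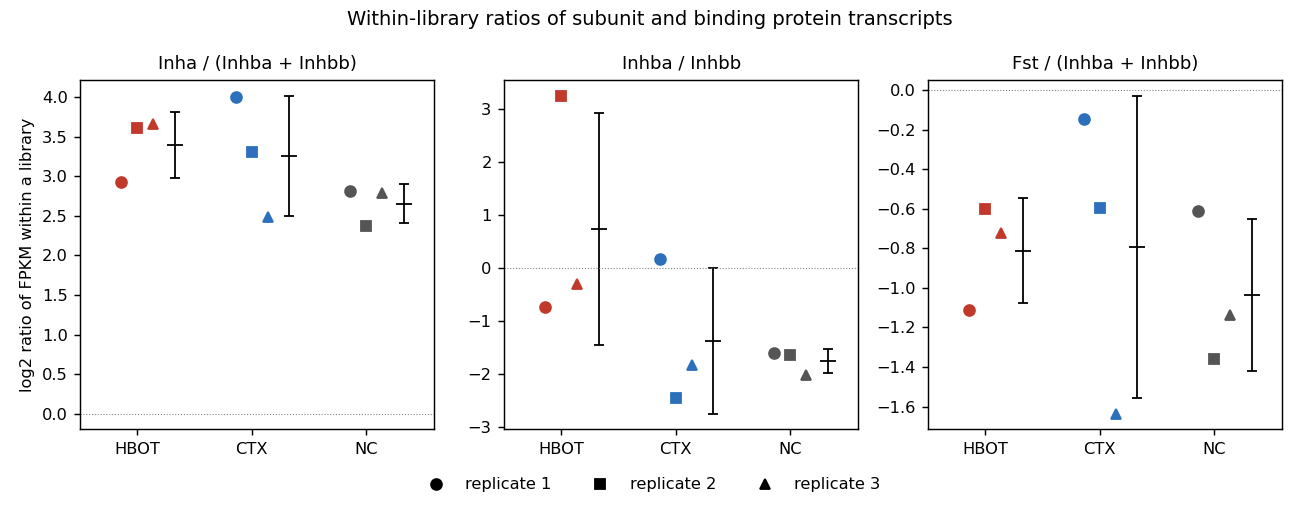
Log2 ratio of FPKM within each library (y axes) for Inha over the summed beta subunits, Inhba over Inhbb, and Fst over the summed beta subunits, by group, with the mean ± SD of 3 libraries in black. In the first and second panels the 3 HBOT libraries lie above the 3 NC libraries, and in the third all groups overlap.

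Fst (ENSMUSG00000021765), the secreted protein that binds activin with high affinity, was at 97.7, 92.0 and 63.4 FPKM in HBOT, 92.8, 66.6 and 102 FPKM in CTX, and 94.0, 75.8 and 100.4 FPKM in NC. One library of each group lay lower than its companions, and the groups overlapped. The log2 fold changes were small: -0.05 in HBOT against CTX (95% interval -0.53 to 0.43, adjusted p = 0.941 by limma), -0.11 in HBOT against NC (-0.59 to 0.37, adjusted p = 0.838) and -0.06 in CTX against NC (-0.54 to 0.42, adjusted p = 0.989). The linear ratio of Fst to the sum of the beta subunits was 0.463, 0.660 and 0.605 in HBOT, 0.905, 0.661 and 0.322 in CTX, and 0.654, 0.390 and 0.454 in NC. It overlapped in every comparison, with an exact permutation p of 0.9 for HBOT against CTX, 0.4 for HBOT against NC and 0.7 for CTX against NC.

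Fstl3 (ENSMUSG00000020325), a relative of follistatin that also binds activins and myostatin, was at 3.43, 3.94 and 5.14 FPKM in HBOT, 2.86, 2.86 and 2.95 FPKM in CTX, and 3.05, 3.88 and 5.27 FPKM in NC. The 3 CTX libraries lay below all HBOT and all NC libraries, and NC replicate 1 was close to them. The mean was 4.17 ± 0.880 FPKM in HBOT, 2.89 ± 0.0549 in CTX and 4.07 ± 1.12 in NC (SD, n = 3 each). The log2 fold change in HBOT against CTX was 0.40 (SE 0.19, 95% interval -0.03 to 0.82, adjusted p = 0.710 by limma), and 0.42 without HBOT replicate 2. In CTX against NC it was -0.36 (SE 0.19, 95% interval -0.79 to 0.07, adjusted p = 0.706), and -0.19 without NC replicate 3. HBOT against NC stood at 0.04 (SE 0.19, adjusted p = 0.943). The promoter window of this gene is the one with the AGGTCA match shown above.

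Acvr1b (ENSMUSG00000000532), the type I activin receptor also called ALK4, was at 8.02, 10.8 and 7.65 FPKM in HBOT, 7.83, 6.24 and 6.33 FPKM in CTX, and 6.37, 6.43 and 6.50 FPKM in NC. The HBOT libraries lay above the NC libraries, which differed from each other by only 1.02-fold, and CTX replicate 1 lay within the HBOT range. The mean was 8.83 ± 1.73 FPKM in HBOT, 6.80 ± 0.888 in CTX and 6.43 ± 0.0631 in NC (SD, n = 3 each). The log2 fold change in HBOT against NC was 0.39 (SE 0.15, 95% interval 0.05 to 0.73, adjusted p = 0.385 by limma). Without HBOT replicate 2, the highest library, it was 0.25 and the groups still did not overlap. It was 0.33 in HBOT against CTX (SE 0.15, adjusted p = 0.710), and 0.19 without HBOT replicate 2. For CTX against NC it was 0.06 (SE 0.15, adjusted p = 0.972), and -0.0283 without CTX replicate 1.

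Acvr2a (ENSMUSG00000052155), a type II activin receptor, was at 4.50, 3.96 and 3.75 FPKM in HBOT, 4.41, 4.90 and 4.79 FPKM in CTX, and 5.03, 6.13 and 4.41 FPKM in NC. NC replicate 2 was highest and the groups overlapped in every comparison. Its log2 fold change was -0.28 in HBOT against NC (SE 0.14, adjusted p = 0.455 by limma), -0.17 in HBOT against CTX (adjusted p = 0.719) and -0.11 in CTX against NC (adjusted p = 0.922). Without NC replicate 2 the values against NC were -0.17 for HBOT and -0.00343 for CTX. Acvr2b (ENSMUSG00000061393), the other type II receptor, was at 1.83, 1.28 and 1.69 FPKM in HBOT, 1.33, 1.40 and 1.21 FPKM in CTX, and 1.68, 1.88 and 1.56 FPKM in NC. All CTX libraries lay below all NC libraries, and HBOT replicate 2 lay among the CTX libraries. In CTX against NC the log2 fold change was -0.23 (SE 0.14, 95% interval -0.54 to 0.09, adjusted p = 0.777 by limma), in HBOT against CTX 0.16 (SE 0.14, adjusted p = 0.726) and in HBOT against NC -0.06 (SE 0.14, adjusted p = 0.859). Without HBOT replicate 2 the value in HBOT against CTX was 0.25. At this low level the pseudocount matters: with 0.1 in place of 1, CTX against NC was -0.35 and HBOT against CTX 0.25.

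Tgfbr3 (ENSMUSG00000029287), the inhibin co-receptor betaglycan, was at 25.2, 13.6 and 22.2 FPKM in HBOT, 25.3, 16.5 and 19.8 FPKM in CTX, and 14.1, 16.8 and 23.3 FPKM in NC. HBOT replicate 2 was the lowest of the 9 libraries and the groups overlapped. The log2 fold change was 0.15 in HBOT against NC (SE 0.26, adjusted p = 0.815 by limma) and 0.40 without HBOT replicate 2. In HBOT against CTX it was -0.04 (SE 0.26, adjusted p = 0.966), and 0.22 without that library, while CTX against NC stood at 0.18 (SE 0.26, adjusted p = 0.936). With 1 library left out, CTX against NC lay between 0.0289 (without NC replicate 1) and 0.37 (without NC replicate 3), and was 0.0297 without CTX replicate 1.

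The number of genes among the 9 whose groups did not overlap was read against all tested genes. In CTX against NC 2 of 9 were lower without overlap (Fstl3 and Acvr2b), against 7.8% of all genes, and 0 were higher, against 13.2%. For HBOT against CTX 1 of 9 was higher (Fstl3), against 3.76%, and 0 were lower, against 6.44%. In HBOT against NC 1 of 9 was higher (Acvr1b), against 10.9%, and 0 were lower, against 9.6%. Without HBOT replicate 2 the counts higher were 2 in HBOT against CTX (Fstl3 and Acvr2b, background 9.17%) and 1 in HBOT against NC (Acvr1b, background 23.6%). With that library left out 0 were lower in either comparison, against 9.57% of genes in HBOT against CTX and 13.2% in HBOT against NC. Without CTX replicate 1, 3 were lower in CTX against NC (Fstl3, Acvr2b and Acvr1b, background 12.4%) and 0 were higher (background 17.5%). Acvr1b was lower there by a small margin, 6.33 FPKM at most in CTX against 6.37 at least in NC. With all 9 libraries its log2 fold change was 0.06. These counts were not made with CTX replicate 1 left out of HBOT against CTX, nor with other libraries left out.

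HBOT replicate 2 held the extreme value of 4 of the 9 genes. It lay above all other 8 libraries for Inhba and Acvr1b, 2 of 9, against 19.5% of all tested genes, and below them for Inhbb and Tgfbr3, 2 of 9, against 44.1%. On the log2(FPKM + 1) scale it differed from the mean of the other 8 libraries by -2.98 for Inhbb, 1.47 for Inhba, 0.58 for Acvr1b and -0.52 for Tgfbr3. Inha (0.36), Fst (0.11), Fstl3 (0.10), Acvr2a (-0.20) and Acvr2b (-0.17) lay within the range of the others. The same library held the summed ovulation genes at 1008 FPKM, given above, from a list chosen with earlier results known. Whether the 2 patterns are linked was not tested.

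**Figure D5:**
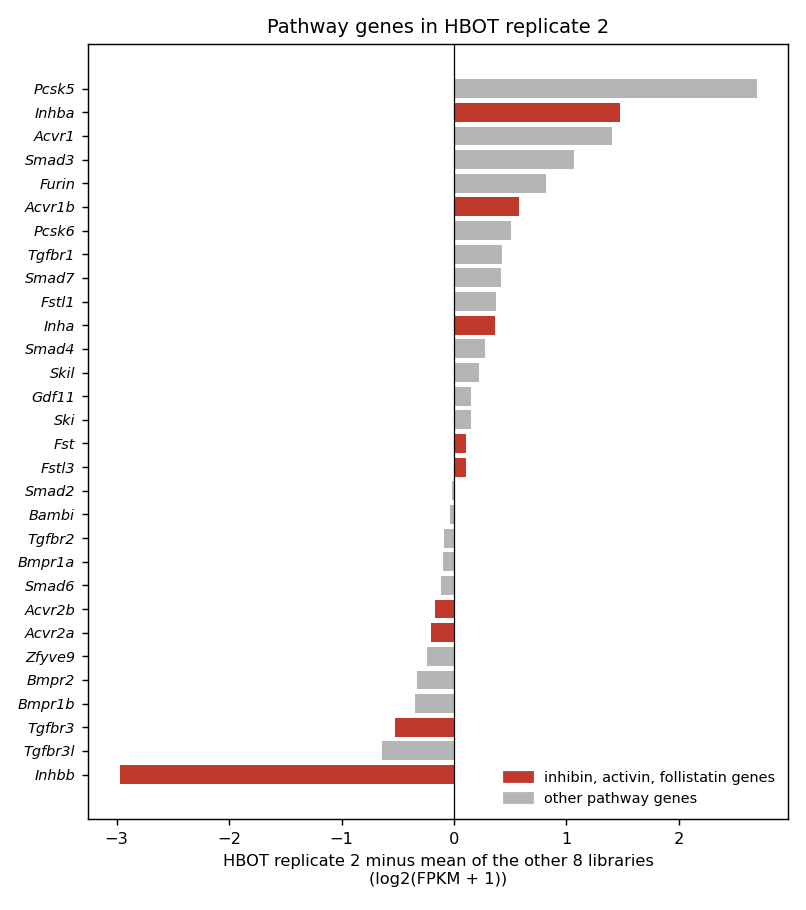
Difference between HBOT replicate 2 and the mean of the other 8 libraries (x axis, log2(FPKM + 1)) for the 9 inhibin, activin and follistatin genes (red) and 21 other pathway genes (grey). Pcsk5 stands at 2.69 and Inhba at 1.47 at the upper end, and Inhbb at -2.98 at the lower end.

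Of 28 further genes of the pathway, chosen for their role (other ligands, receptors, SMAD proteins and their inhibitors, and the proteases that cut the precursors), 21 were tested. The subunit gene Inhbc and the myostatin gene Mstn were listed at 0 in all 9 libraries, and Inhbe, Acvr1c, Igsf1 and Foxh1 stayed under 1 FPKM in all 9. Tdgf1, a co-receptor of the family, reached 1.22 FPKM in 1 library (HBOT replicate 2) and was not tested. It was at 0.67, 1.22 and 0.79 FPKM in HBOT and 0.60, 0.47 and 0.46 in CTX. In NC it was at 0.40, 0.27 and 0.33 FPKM. These low values did not overlap between groups, but the shares of all genes given here cover tested genes only. How often untested genes separate in this way was not computed, and Tdgf1 is not in the counts below. With limma 0 of 21 passed in each of the 3 comparisons, against 0% of all genes. At an unadjusted p under 0.05, 1 of 21 was found in each, in either direction: Smad2, lower in CTX against NC (7.98% of all genes), Fstl1, higher in HBOT against CTX (6.09%), and Gdf11, higher in HBOT against NC (11.9%). Groups did not overlap for 3 of 21 higher (Smad3, Smad6 and Zfyve9) and 2 lower (Tgfbr2 and Bmpr1a) in CTX against NC, against 13.2% and 7.8% of all genes. For HBOT against CTX the counts were 1 higher (Fstl1) and 0 lower, against 3.76% and 6.44%. For HBOT against NC they were 5 higher (Acvr1, Smad3, Smad6, Smad7 and Ski) and 1 lower (Bmpr1a), against 10.9% and 9.6%. The median log2 fold change of the 21 was 0.03 in CTX against NC (0.05 over all genes), 0.11 in HBOT against CTX (-0.07) and 0.14 in HBOT against NC (-0.01).

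The pathway genes with the smallest p in CTX against NC were Smad2, which carries the activin signal to the nucleus, the secreted glycoprotein Fstl1, the TGF-beta receptor Tgfbr2 and the inhibitory Smad6. Smad2 averaged 12.9 ± 3.21 FPKM in CTX and 18.2 ± 1.62 in NC (SD, n = 3 each, log2 fold change -0.49, adjusted p = 0.537 by limma). Fstl1 averaged 34.4 ± 4.67 in CTX and 44.4 ± 9.29 in NC (-0.35, adjusted p = 0.690), Tgfbr2 9.73 ± 1.11 in CTX and 11.5 ± 0.193 in NC (-0.22, adjusted p = 0.697), and Smad6 4.39 ± 0.610 in CTX and 3.44 ± 0.108 in NC (0.27, adjusted p = 0.697). The value of Fstl1 was -0.21 without NC replicate 3 and that of Tgfbr2 -0.14 without CTX replicate 3.

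The smallest p in HBOT against CTX were those of Fstl1, Smad2, the SMAD anchor Zfyve9 and Pcsk5, a protease that cuts TGF-beta family precursors. Fstl1 averaged 48.8 ± 4.80 FPKM in HBOT and 34.4 ± 4.67 in CTX (SD, n = 3 each, log2 fold change 0.50, adjusted p = 0.710 by limma). Smad2 (0.28, adjusted p = 0.710) and Zfyve9 (-0.18, adjusted p = 0.710) overlapped, and stood at 0.16 without HBOT replicate 1 and at -0.11 without HBOT replicate 2. Pcsk5 was at 14.6, 93.9 and 11.0 FPKM in HBOT and at 12.4, 11.7 and 12.9 FPKM in CTX. Its value of 0.97 (log2 fold change, adjusted p = 0.710) was 0.04 without HBOT replicate 2.

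For HBOT against NC they were Gdf11, a ligand that shares the activin receptors, the signal transducer Smad3, the SMAD repressor Ski and the type I receptor Acvr1. Gdf11 averaged 4.25 ± 1.53 FPKM in HBOT and 2.66 ± 0.448 in NC (SD, n = 3 each, log2 fold change 0.49, adjusted p = 0.413 by limma), and its fold change was 0.27 without HBOT replicate 1. Smad3 averaged 31.1 ± 13.8 in HBOT and 19.95 ± 1.34 in NC (0.54, adjusted p = 0.429), and its fold change was 0.21 without HBOT replicate 2. Acvr1 averaged 33.1 ± 19.4 in HBOT and 18.7 ± 2.90 in NC (0.67, adjusted p = 0.472), and stood at 0.23 without that library. Ski averaged 31.6 ± 0.480 in HBOT and 26.5 ± 1.55 in NC (0.25, adjusted p = 0.429), and stood at 0.24 without HBOT replicate 2.

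The genes whose profile over the 9 libraries was most like that of a given member were named by the smallest root mean square difference between log2(FPKM + 1) profiles centred on their own means, among 11530 named genes with a mean of at least 2 FPKM. For Inha they were the semaphorin Sema3g (0.11), Tox2 (0.12) and the chaperone gene Hyou1 (0.15), where Inha itself deviated by 0.33 from its own mean. For Inhba they were Lrrn2 (0.34), the WNT antagonist Frzb (0.39) and Slfn14 (0.41), against its own deviation of 0.77. For Inhbb they were the clock repressor Nr1d1 (0.51), Tspan15 (0.55) and Kcnab3 (0.57), against 1.17, and for Fst the ephrin Efna5 (0.08), Fam204a (0.12) and Trmt11 (0.13), against 0.24. These distances are descriptions. Without HBOT replicate 2, 1 of the 3 genes stayed among the nearest 3 for Inha (Sema3g), 1 for Fst (Efna5), and 0 each for Inhba and Inhbb.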

How the data were processed

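The data are 9 libraries of polyadenylated RNA from mouse ovary. The authors deposited 1 table of FPKM values, a column per library and 22544 rows, and 0 columns stayed unmatched to a sample. The submitters' processing notes name fastp 0.23.4 and the build GRCm39 (mm39). Aligner, counting program and annotation: not given in the sources used here. No read counts are in the table, so depth is unknown and no count method was used.

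From the deposited FPKM, log2(FPKM + 1) was computed for genes at or above 1 FPKM in 3 or more libraries. One model of the 3 groups was fitted to the 9 libraries with limma 3.58.1 (lmFit, contrasts.fit, eBayes with trend) in R 4.3.3, with Benjamini-Hochberg adjustment of p over the 13338 genes. The fit was tested on simulated data with independent normal noise and no library set apart. That run does not show how the fit behaves with a library such as HBOT replicate 2. Ratios were compared by exact two-sided permutation (scipy 1.17.1, Python 3.11.15), whose smallest p is 0.1. All 9 members are named in each comparison, and of the further pathway genes the 4 with the smallest p, as none was called. The members and lists were chosen with earlier results of these data known. Promoter windows are RefSeq's for GRCm38.p6, and GENCODE M21 on GRCm38 was used to find windows in coding sequence. Tried as alternatives were 0.1 as the pseudocount, testing without a filter or from 5 FPKM, TPM and median-of-ratios scaling, a fit of the 2 groups compared, replicate number as a block, library weights, each library left out, and HBOT replicate 2 and CTX replicate 1 left out together. The ratios, made without a pseudocount, were repeated with 1 FPKM added to each gene.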

Additional observations from a re-analysis of the deposited data

How the results depend on the processing

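Over the 18 alternatives 0 of the 9 genes passed in each comparison (6 were tested with a filter of 5 FPKM). Among all genes, limma called 31 in a fit of CTX and NC alone. With library weights it called 123 in CTX against NC, 5 in HBOT against CTX and 181 in HBOT against NC. With no filter 1 was called in HBOT against CTX and 1 in HBOT against NC. Without both HBOT replicate 2 and CTX replicate 1, 16 were called in CTX against NC and 2 in HBOT against CTX. Leaving out 1 library gave 0 to 9 genes in CTX against NC (9 without HBOT replicate 3, 8 without HBOT replicate 2), 0 to 1 in HBOT against CTX and 0 to 3 in HBOT against NC (3 without HBOT replicate 3).

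Of 477 alternative fold changes of the 9 genes 26 changed sign, and the causes were not tested beyond the library left out. Many of the 477 equal the main value by construction, so the share of sign changes is no measure of stability. These are the fits with another filter, of 2 groups only, with the replicate block, or without a library of the group not compared. With 1 library left out, CTX against NC ran from -0.50 to 0.54 for Inhba, -1.13 to 0.0396 for Inhbb, -0.18 to 0.12 for Fst and -0.0283 to 0.11 for Acvr1b. HBOT against CTX ran from -0.15 to 0.26 for Inha, -0.23 to 0.14 for Fst and -0.21 to 0.22 for Tgfbr3. HBOT against NC ran from -0.23 to 0.0833 for Fst, -0.11 to 0.20 for Fstl3, -0.13 to 0.0285 for Acvr2b and -0.0209 to 0.40 for Tgfbr3. Without both HBOT replicate 2 and CTX replicate 1, Tgfbr3 stood at 0.37 in HBOT against CTX. In CTX against NC that setting gave Inhbb 0.0396 and Acvr1b -0.0283, the same values as without CTX replicate 1 alone. In HBOT against NC it gave Acvr2b 0.0285, the same value as without HBOT replicate 2 alone. These repeats are counted among the 26 sign changes. In HBOT against CTX, Fst was at 0.0241 and Tgfbr3 at 0.0325 with median-of-ratios scaling, and at 0.0486 and 0.31 with library weights. In HBOT against NC, Acvr2b was at 0.0192 with library weights.

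The values that follow are differences between group means of the log2 ratios, with 1 library left out. For Inha to the summed beta subunits the difference ran from -0.26 to 0.50 in HBOT against CTX. For Inhba to Inhbb it ran from -0.39 to 0.93 in CTX against NC. For Fst to the summed beta subunits it ran from -0.0801 to 0.67 in CTX against NC and -0.44 to 0.30 in HBOT against CTX. In HBOT against NC the difference ran from 1.23 to 3.23 for Inhba to Inhbb, and from 0.60 to 0.98 for Inha to the summed beta subunits.

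The replicate numbers mark no shared animal or batch in the labels. The deviations of same-numbered libraries correlated across genes between -0.29 and 0.16, and 4 of 9 libraries correlated best with their own number. Some such matches arise by chance, since each other group holds a same-numbered library, and the count was not tested against chance. With the replicate block 0 genes were called in each comparison, and the difference of 2.50 in the ratio of Inhba to Inhbb, the same value by construction, had an exact sign-flip p of 0.25, the smallest for 3 pairs.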
